A study of Mus musculus with 8 samples.

Results

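The Toll-like receptors and the proteins that serve them were examined as a set of 10 genes, taken from the deposited count table by symbol: the receptors Tlr1, Tlr2, Tlr3, Tlr4, Tlr6, Tlr7, Tlr9 and Tlr13, the co-receptor Cd14 and the adaptor Myd88. All 10 were among the 51810 genes of the table, and all 10 passed the filter on low counts that left 16237 genes for testing. The samples were microglia, the resident macrophages of the brain, from wild type mice aged 4 or 21 months. They came from white matter or from grey matter, with 2 libraries in each of the 4 groups by region and age. No genotype other than wild type, no treatment and no sex is given, so the groups differ by label only in region and age. After removal of myelin, cells carrying CD11b, an integrin of microglia and of other myeloid cells, were pulled out on magnetic columns, and polyadenylated RNA was read on an Ion Proton instrument.

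The white matter of the study is the corpus callosum, the fibre tract that joins the hemispheres. The same region name also stands on the grey matter samples; they were taken as grey matter from their titles and tissue. Whether the libraries of a group stem from different animals is not stated, so each p-value measures only how these samples spread, and that spread may be technical. In bulk RNA of this kind, fewer cells of a type and less RNA per cell cannot be told apart.

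Toll-like receptors are membrane proteins that bind molecules of microbes or of damaged cells. TLR2 pairs with TLR1 or TLR6 at the cell surface to bind lipoproteins, and TLR4 binds bacterial lipopolysaccharide with the help of CD14 and of MD-2, the product of Ly96. TLR3, TLR7, TLR9 and TLR13 sit in endosomes and bind nucleic acids, namely double-stranded RNA, single-stranded RNA, unmethylated CpG DNA and bacterial ribosomal RNA. All of these receptors except TLR3, which uses TRIF (Ticam1), signal through MyD88 to the IRAK kinases, TRAF6 and the transcription factor NF-kappa B. Among brain cells, microglia are a main site of their expression.

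For 7 of the 10 genes at least 1 RefSeq promoter window (build GRCm38.p6) was searched. Each window spans 250 bases before to 50 bases after the start of transcription. No window of Tlr4, Tlr7 or Cd14 was searched, so these are named only and may or may not hold the motifs. A motif search on both strands covered the kappa B site, GAGGAA (the core bound by PU.1, the myeloid transcription factor) and TATAAA (the TATA box). Among the 7 genes, only Tlr2 and Tlr3 held the kappa B motif, which 4.505% of 32851 windows in the table hold. The window of Tlr2 is shown because this gene had the largest difference of the 10 between regions at 21 months. The window of Tlr3 is shown because it holds the same motif while its levels at 21 months differed little. Capitals mark the kappa B matches, and both windows read 5′ to 3′ along the gene's strand, the minus strand, at chr3:83841559-83841858 for Tlr2 and chr8:45410331-45410630 for Tlr3.
Tlr2: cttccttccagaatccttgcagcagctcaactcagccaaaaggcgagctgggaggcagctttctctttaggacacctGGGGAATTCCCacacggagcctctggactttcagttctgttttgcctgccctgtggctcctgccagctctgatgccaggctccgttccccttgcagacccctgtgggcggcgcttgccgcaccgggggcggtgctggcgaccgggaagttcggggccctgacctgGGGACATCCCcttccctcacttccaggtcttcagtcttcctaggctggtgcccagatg
Tlr3: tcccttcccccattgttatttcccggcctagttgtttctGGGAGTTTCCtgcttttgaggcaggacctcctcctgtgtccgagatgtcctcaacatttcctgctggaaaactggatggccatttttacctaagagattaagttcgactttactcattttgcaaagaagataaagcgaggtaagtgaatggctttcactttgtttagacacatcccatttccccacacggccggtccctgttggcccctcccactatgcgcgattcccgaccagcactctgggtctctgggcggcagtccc

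In Tlr2 the first run of capitals joins 2 overlapping matches, from base -173 to -164 and from -172 to -163 before the start, and the second lies across the start, from -8 to 2. In Tlr3 the match lies from -211 to -202. GAGGAA was found in windows of Tlr1, Tlr9 and Tlr13 (28.28% of all windows), and TATAAA in windows of Tlr6 and Myd88 (13.62% of all windows). Each match describes letters in a window and no binding was measured here.

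Library totals ran from 3273258 to 6315782 counts, and levels are given as CPM, the counts of a gene relative to all counts of its library, corrected by TMM, which equalises libraries on the bulk of their genes. The 15 microglia markers examined were all above 0 in every library. Their sum lay between 17119 and 26101 CPM in 7 libraries and at 4534 CPM in the first 4-month white matter library. In that library the oligodendrocyte markers summed to 64823 CPM, against 199.8 to 815.5 CPM in the other 7. It stood apart for nearly every gene described here, so the main fitted differences that use it are also given without it. Counts of genes without overlap, DESeq2 calls and shares at an unadjusted p are given only with it. Neutrophil markers were lower in white than in grey matter at both ages, with 394.7 to 1123 CPM in white matter and 2705 to 5474 CPM in grey matter. Choroid plexus and ependyma markers were high in both 4-month white matter libraries, at 5461 and 7161 CPM, and in the second 21-month white matter library, at 11862 CPM. They lay between 39.1 and 472.2 CPM in the other 5 libraries.

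**Figure D1:**
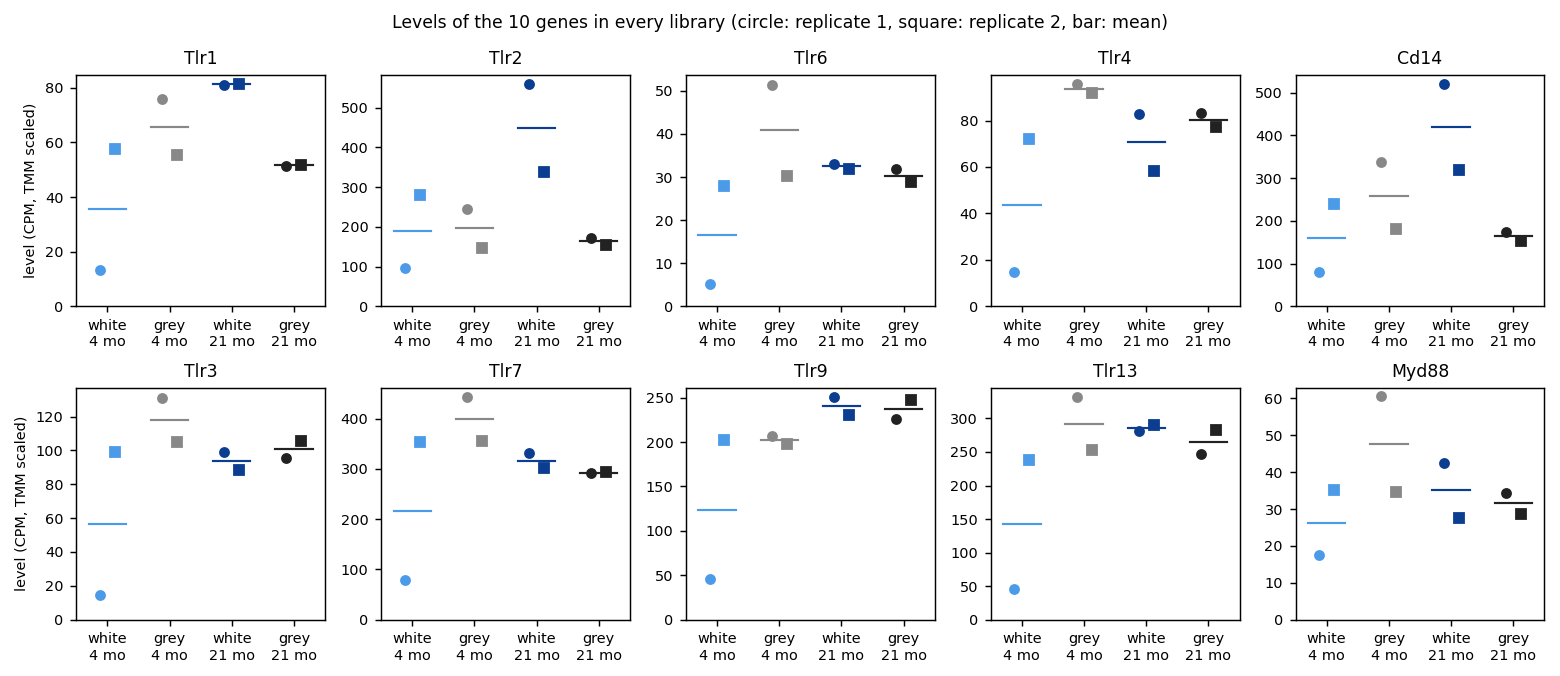
Level of each of the 10 genes (y axis, CPM after TMM scaling) in every library of the 4 groups (x axis); circles are the libraries numbered 1, squares those numbered 2, and bars the group means. The first 4-month white matter library has the lowest level of all 10 genes, and at 21 months Tlr2 and Cd14 are highest in white matter.

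Compared per length of exon, the 10 genes ranked much alike in both regions at 21 months, with Tlr2 as the gene that moved by the most places. Levels between genes are given as CPM per kilobase, with exonic lengths from GENCODE M21; the authors' own annotation, and whether reads cover whole transcripts, is not given in the sources used here. In 21-month white matter Cd14 led at 255.5 CPM per kilobase, followed by Tlr2 at 149.0 and Tlr7 at 79.8. Tlr13 at 70.3 and Tlr9 at 69.2 came next and overlapped. Tlr1 at 26.1, Tlr3 at 20.9, Myd88 at 17.9, Tlr4 at 12.9 and Tlr6 at 8.82 CPM per kilobase made up the lower end. Across libraries the range of Myd88 overlapped with those of Tlr3 and Tlr4. Within each library Myd88 lay below Tlr3 and above Tlr4.

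In 21-month grey matter Cd14 led again, at 99.8 CPM per kilobase. Tlr7 at 73.8, Tlr9 at 68.1 and Tlr13 at 65.2 followed, and only then came Tlr2, in place 5, at 54.4. Tlr3 at 22.4, Tlr1 at 16.5, Myd88 at 16.1, Tlr4 at 14.7 and Tlr6 at 8.25 CPM per kilobase stood lowest. The ranges of the neighbours Tlr9 and Tlr13, Tlr1 and Myd88, and Myd88 and Tlr4 overlapped there. Within each library Tlr9 still lay above Tlr13, and Myd88 above Tlr4. In 4-month white matter the ranges of every pair of neighbours overlapped, since its 2 libraries lie far apart. Within each of them Cd14, Tlr2, Tlr7 and Tlr9 kept that order. They stood at 49.4, 32.4, 19.8 and 13.1 CPM per kilobase in the first and at 145.8, 92.9, 89.4 and 58.1 in the second. In 4-month grey matter the neighbours that did not overlap were Tlr7 above Tlr13, Tlr9 above Tlr3, Tlr1 above Tlr4, and Tlr4 above Tlr6. Within each library Cd14 also lay above Tlr7, and Tlr13 above Tlr2.

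**Figure D2:**
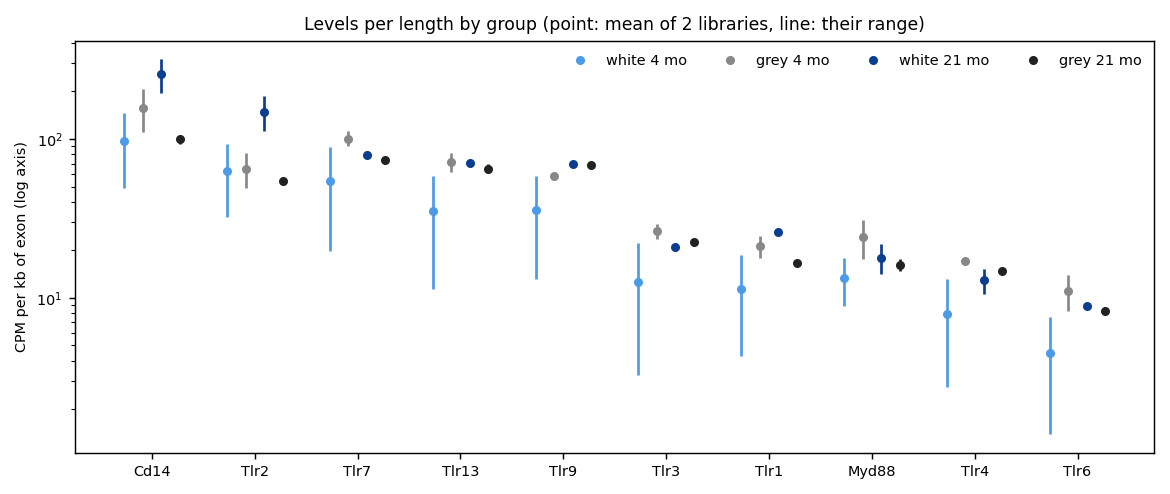
Level per length of the 10 genes (y axis, CPM per kilobase of exon, log axis) in the 4 groups; points are means of 2 libraries and lines their range. Cd14 has the highest mean in all 4 groups, Tlr6 the lowest, and Tlr2 stands in place 2 in 21-month white matter and in place 5 in 21-month grey matter.

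The first comparison asked how microglia of old white matter differ from those of old grey matter. At 21 months, Tlr2 and Cd14 were higher in white matter, while the nucleic acid receptors and Myd88 differed by 0.15 or less on the log2 scale. Tlr2 reached 560.1 and 338.2 CPM in the white matter libraries, and 172.3 and 155.5 CPM in the grey matter libraries. Cd14 reached 520.6 and 318.1 CPM in white matter, and 174.1 and 153.5 CPM in grey matter. For both genes the lower white matter library was the second one, and it still lay well above both grey matter libraries. Group means of Tlr2 were 449 ± 157 and 164 ± 11.9 CPM (SD, n = 2), and those of Cd14 were 419 ± 143 and 164 ± 14.6 CPM.

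With all 8 libraries in the fit, edgeR's quasi-likelihood test called none of the 10 genes and none of the 16237 genes tested (0%, at a threshold of 0.05 on the Benjamini-Hochberg adjusted p). Tlr2 was 1.45 ± 0.585 higher in white matter on the log2 scale (SE, unadjusted p = 0.0404), and Cd14 1.36 ± 0.606 (unadjusted p = 0.0586). At an unadjusted p under 0.05 stood 381 genes, 2.35% of those tested, and 1 of the 10, Tlr2. DESeq2, run without the low-count filter, called 48 of 32865 genes (0.146%), none of them among the 10. It gave an adjusted p of 1 for both Tlr2 and Cd14.

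In the fit of the 4 libraries of 21 months alone, which does not take its spread from the 4-month libraries, 232 of 14717 genes were called, or 1.58%, and 0.985% were called higher in white matter. In that fit Tlr2 and Cd14 were called, 2 of the 10. Tlr2 was higher by 1.45 ± 0.242 on the log2 scale, with an edgeR adjusted p of 0.0237. Cd14 was higher by 1.35 ± 0.239, with an adjusted p of 0.0298. Over 25 settings the adjusted p of Tlr2 ran from 1.83e-13 to 1, and that of Cd14 from 1.08e-11 to 1. No setting had more than 2 libraries per group, so the low ends rest on how a setting estimates the spread. They are not a measure of how strong the difference is. Both were called without either white matter library, with log2 values of 1.02 (adjusted p = 0.00691) and 0.93 (0.0133) when the first was left out. Such a fit has 1 white matter library and takes its spread from the 2 grey matter libraries, the replicates that differed least, so these calls assume that white matter varies as little. Neither was called without the first grey matter library (edgeR adjusted p = 0.249 for Tlr2 and 0.270 for Cd14) or without the second (0.205 and 0.241).

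Counted against the sum of the 15 microglia markers, the difference was as large. The sum itself was 17760 and 17594 CPM in 21-month white matter, and 17119 and 20344 CPM in grey matter. Single markers differed between the regions in both directions, so the ratio also depends on them. P2ry12 had 982.5 and 1092 CPM in white matter against 1465 and 1599 CPM, and Trem2 344.4 and 274.4 against 188.2 and 221.6 CPM. Tlr2 counts were 3.15% and 1.92% of the microglia marker sum in 21-month white matter, and 1.01% and 0.764% in grey matter. Cd14 counts were 2.93% and 1.81% of that sum in white matter, against 1.02% and 0.755% in grey matter. Scaled by those markers, the 21-month fit gave log2 differences of 1.52 ± 0.256 for Tlr2 (edgeR adjusted p = 0.0162) and 1.42 ± 0.256 for Cd14 (0.0223).

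Neutrophils also express Tlr2 and Cd14, and their 12 markers summed to 997.6 and 556.7 CPM in 21-month white matter, against 2997 and 2705 CPM in grey matter. Of these sums Csf3r alone held 674.3 and 473.1 CPM in white matter, and 651.7 and 720.7 CPM in grey matter. Monocyte markers came to 265.8 and 327.5 CPM in white matter, against 723.2 and 492.4 CPM in grey matter. Of these Fn1 held 128.0 and 138.8 against 217.7 and 97.4 CPM. Markers of border-associated macrophages came to 370.9 and 502.6 against 788.7 and 883.7 CPM. Of these Stab1 held 171.7 and 243.6 against 311.8 and 378.8 CPM, and Maf 163.4 and 185.5 against 307.4 and 368.4 CPM. Choroid plexus and ependyma markers came to 392.6 and 11862 CPM in white matter, against 472.2 and 366.8 CPM in grey matter. The part of these other cells in the levels of Tlr2 and Cd14 was not tested.

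**Figure D3:**
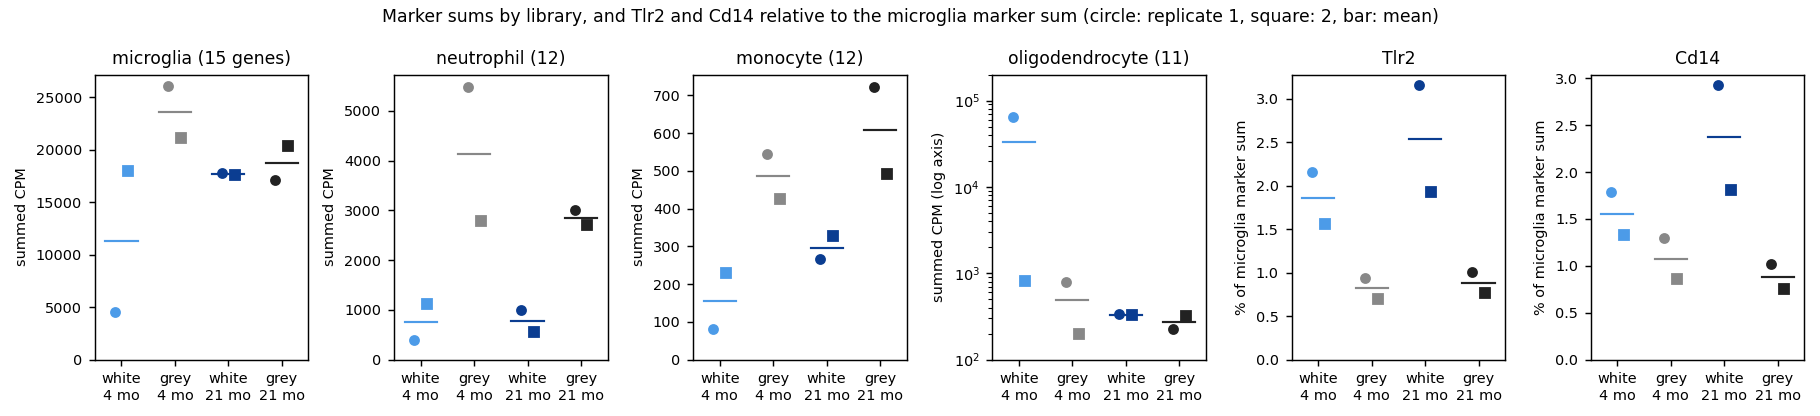
Summed levels of marker lists (CPM, log axis for oligodendrocytes) and levels of Tlr2 and Cd14 as a percentage of the microglia marker sum, in every library of the 4 groups (circle: replicate 1, square: replicate 2, bar: mean). Microglia markers are low and oligodendrocyte markers high in the first 4-month white matter library, and neutrophil markers are lower in both white matter groups. Tlr2 relative to the microglia marker sum is above 1.5% in all 4 white matter libraries and at most 1.01% in all 4 grey matter libraries.

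The partners of TLR2 did not show the same size of difference. Tlr1 reached 81.1 and 81.5 CPM in 21-month white matter, and 51.5 and 51.6 CPM in grey matter. The libraries of each region were nearly equal and the regions did not overlap. The 21-month fit gave 0.65 ± 0.170 on the log2 scale with an edgeR adjusted p of 0.115, so the gene was not called. Tlr6, the other partner, had 33.1 and 31.8 CPM in white matter and 31.9 and 28.7 CPM in grey matter, and these overlapped.

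Tlr4, the lipopolysaccharide receptor that CD14 serves, did not share the pattern of Cd14. It stood at 83.0 and 58.1 CPM in 21-month white matter and at 83.2 and 77.0 CPM in grey matter. The highest white matter value thus lay within the grey matter range, and the fit of all 8 libraries gave a log2 difference of -0.18 ± 0.634.

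Among the endosomal receptors, Tlr7 had 331.6 and 301.2 CPM in 21-month white matter and 291.0 and 293.9 CPM in grey matter. These regions did not overlap, though the log2 difference was only 0.11 ± 0.644. Tlr13, with 280.7 and 290.0 CPM against 246.6 and 282.5 CPM, overlapped. Tlr9 had 250.7 and 230.7 CPM in white matter and 226.2 and 247.6 CPM in grey matter, a difference of 0.02 ± 0.622. Tlr3 had 98.9 and 88.7 CPM against 95.7 and 105.5 CPM, and Myd88 had 42.6 and 27.6 CPM against 34.5 and 28.7 CPM. For Tlr9, Tlr3 and Myd88 the libraries of the regions interleaved. In the 21-month fit the standard errors of Tlr3, Tlr7, Tlr9 and Tlr13 were 0.156 to 0.165 on the log2 scale, which sets the precision of these small differences.

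In all, 4 of the 10 genes (Tlr1, Tlr2, Cd14 and Tlr7) were higher in white matter with no overlap, where 21% of all genes tested were higher without overlap. The median log2 difference of the 10 was 0.11, and that of all genes was 0.02.

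**Figure D4:**
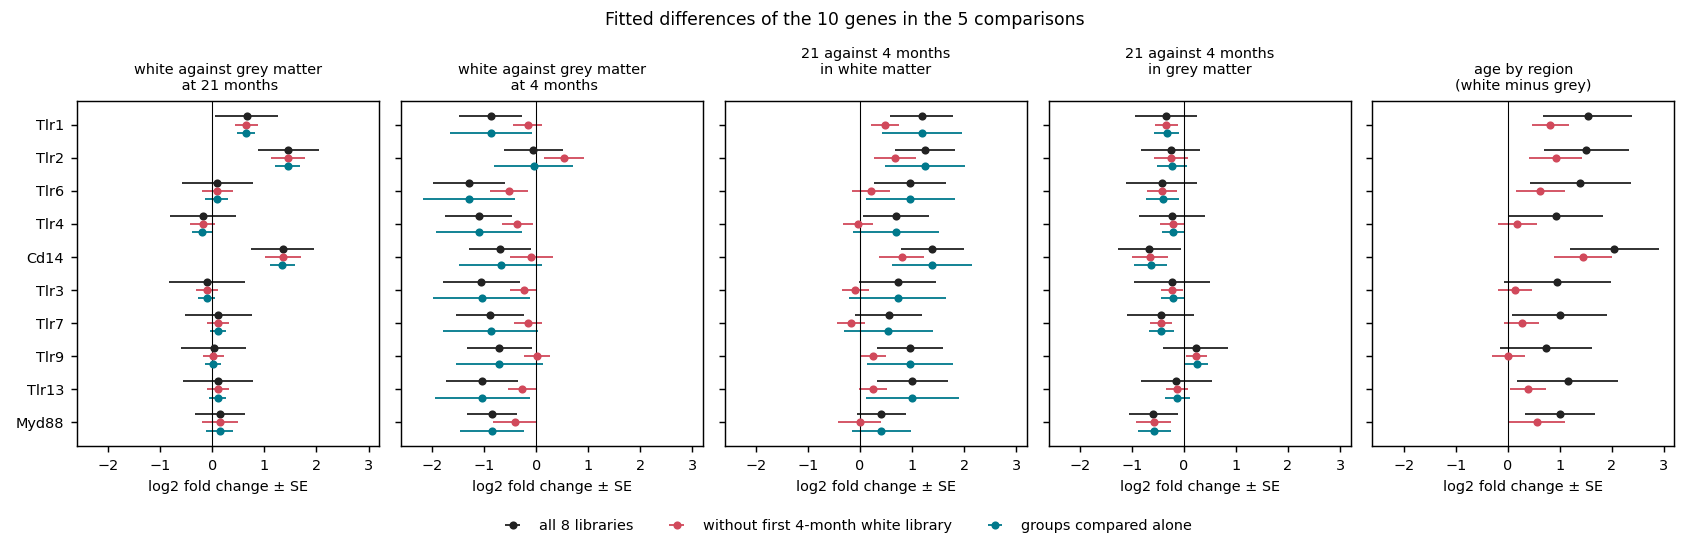
Log2 fold change with SE (x axis) of each of the 10 genes (y axis) in the 5 comparisons, under the fit of all 8 libraries, the fit of the compared groups alone where it exists, and a fit that leaves out the first 4-month white matter library. Tlr2 and Cd14 have the 2 highest values in the 21-month comparison of regions under all 3 fits, and in the comparisons with 4-month white matter the values move toward 0 without that library, except that of Tlr2 at 4 months.

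Ratios within a library do not depend on how libraries are scaled, and these were computed after the values above had been seen, so no test is given. Tlr2 amounted to 58.2% and 37.1% of the summed CPM of the 4 endosomal receptors in 21-month white matter, and to 53.1% and 31.3% in 4-month white matter. In grey matter it was 20.1% and 16.7% at 21 months, and 22.0% and 16.1% at 4 months. All 4 white matter libraries thus lay above all 4 grey matter libraries, the one that stood apart included. The share of all genes that would separate in this way is not given here. In all 4 groups the first library also lay above the second by this percentage, and the cause of that order was not tested. The ratio of Tlr2 to Tlr1 ran from 4.15 to 7.27 in white matter and from 2.66 to 3.35 in grey matter, and that of Tlr2 to Tlr6 from 10.05 to 19.2 and from 4.76 to 5.41.

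Cd14 relative to the endosomal receptors stood at 54.1% and 34.9% in 21-month white matter and at 20.3% and 16.5% in 21-month grey matter. At 4 months the regions overlapped, with 44.0% and 26.8% in white matter against 30.3% and 19.8% in grey matter. For Cd14 too, the first library of every group lay above the second. Tlr4 relative to the same sum had 8.63% and 6.38% in 21-month white matter against 9.68% and 8.29% in grey matter, which overlapped. At 4 months it had 8.09% and 8.06% in white matter against 8.61% and 10.1% in grey matter, lower in white matter with no overlap.

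The remaining pathway was described through 74 further genes in 8 roles, of which 67 passed the filter in the fit of the 21-month libraries. With all 8 libraries none was called. With the 21-month libraries alone 5 of 67 were called, all higher in white matter: the nuclease gene Pld3 and the target genes Tnf, Ccl3, Ccl4 and Cxcl10. In that fit 1.58% of all genes were called, 0.985% were called higher, and 50.8% had a value above 0. Pld3 encodes an enzyme of endosomes and lysosomes that degrades single-stranded nucleic acids, the ligands of endosomal receptors. It had 253.1 and 210.1 CPM in white matter and 79.4 and 78.7 CPM in grey matter, a log2 difference of 1.54 ± 0.171 (edgeR adjusted p = 0.00182). The white matter values lay far above both grey matter values.

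Of the target genes, 14 were tested, 11 had a value above 0 (50.8% of all genes had), and 4 were called (1.58% of all genes were). Tnf, the cytokine TNF, had 699.2 and 675.9 CPM in white matter against 177.7 and 279.1 CPM in grey matter, a log2 difference of 1.58 ± 0.213 (edgeR adjusted p = 0.0066). Ccl3, a chemokine gene, differed by 1.05 ± 0.173 (adjusted p = 0.0141), its neighbour in function Ccl4 by 1.11 ± 0.209 (0.0292), and the interferon-induced chemokine Cxcl10 by 1.28 ± 0.209 (0.0139). For Ccl3 and Cxcl10 both white matter libraries lay above both grey matter libraries, with Ccl3 at 1144 and 943.1 against 486.9 and 512.5 CPM and Cxcl10 at 75.2 and 85.4 against 27.5 and 38.5 CPM. Il1b, the gene of interleukin-1 beta, was not called, at 0.53 ± 0.275 (edgeR adjusted p = 0.562). Its second white matter library, at 358.8 CPM, lay below the first grey matter library, at 364.8 CPM.

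The signalling chain between receptors and targets showed smaller values. Among the other adaptors 5 of 5 were above 0, where 50.8% of all genes were, and none was called. Ticam1, the gene of TRIF, had 0.43 ± 0.178 and Tirap, which bridges TLR2 and TLR4 to MyD88, had 0.01 ± 0.308. The 16 kinases and ubiquitin ligases split into 7 above and 9 below 0, with Irak4, the first kinase on MyD88, at -0.02 ± 0.215 and the ubiquitin ligase Traf6 at 0.10 ± 0.175. Of 8 transcription factors 6 were above 0, with Nfkb1, an NF-kappa B subunit, at 0.33 ± 0.223. None of these kinases and factors was called.

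The inhibitors were above 0 in 8 of 8 genes tested, where 50.8% of all genes were. Their median was 0.42 against 0.01 for all genes, and none was called. Tnfaip3, which encodes the ubiquitin-editing inhibitor A20, had 1912 and 1659 CPM in 21-month white matter and 1173 and 1133 CPM in grey matter, a log2 difference of 0.62 ± 0.171 (edgeR adjusted p = 0.134). Its regions did not overlap. Nfkbia, which encodes the inhibitor that holds NF-kappa B in the cytoplasm, had 0.41 ± 0.222 (adjusted p = 0.561).

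Among chaperones and routing proteins 5 of 9 were above 0 and Pld3 alone was called. Unc93b1, the chaperone that carries the endosomal receptors, had 506.4 and 404.3 CPM in white matter and 479.3 and 483.2 CPM in grey matter, and these overlapped. Ly96, the MD-2 partner of TLR4, had a log2 difference of -0.08 ± 0.318.

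A few further genes were chosen after their values were seen. Tlr5, the receptor of bacterial flagellin, ran opposite to Tlr2, with 6.62 and 13.7 CPM in 21-month white matter and 29.3 and 31.8 CPM in grey matter. Its log2 difference was -1.60 ± 0.344, and its edgeR adjusted p of 0.0510 missed the threshold narrowly. Cd180, a receptor relative of TLR4, and its partner Ly86 were higher in both white matter libraries, with log2 differences of 0.63 ± 0.169 and 0.81 ± 0.182, and were not called (adjusted p = 0.121 and 0.0636).

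**Figure D5:**
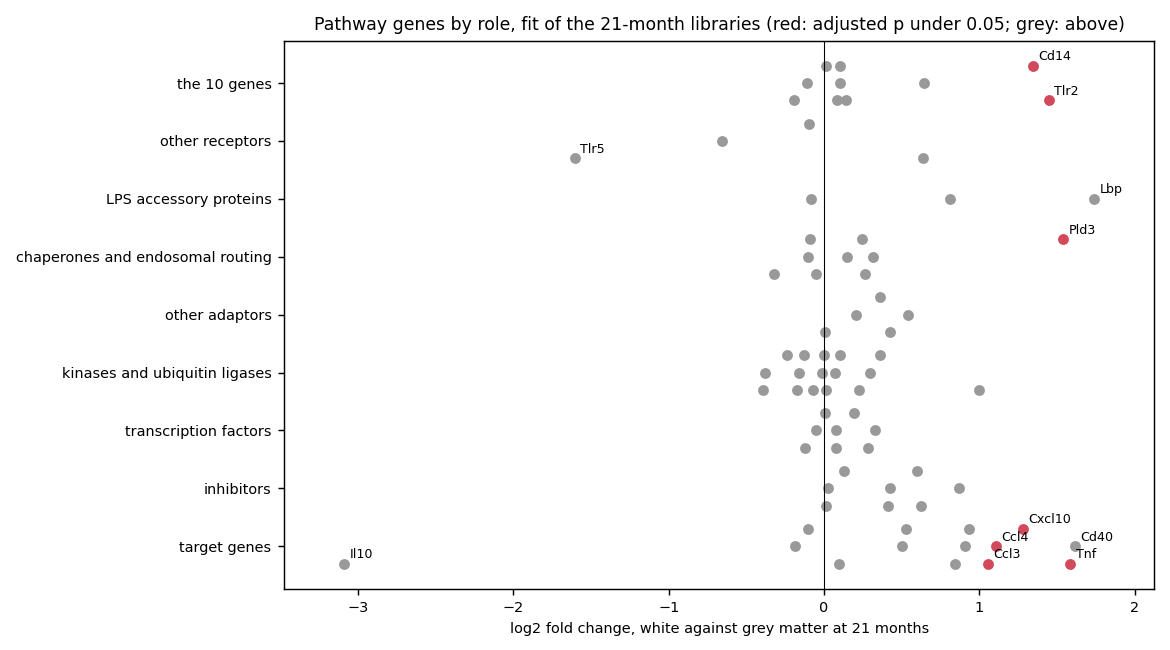
Log2 fold change between white and grey matter at 21 months (x axis) for the 10 genes and the further pathway genes by role (y axis), from the fit of the 21-month libraries; red points have an adjusted p under 0.05. All 7 called genes lie above 0: Tlr2, Cd14, Pld3, Tnf, Ccl3, Ccl4 and Cxcl10.

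At 4 months none of the 10 was called by edgeR with all 8 libraries, nor was any other gene (0%); at an unadjusted p under 0.05 stood 0 of the 10 and 8.91% of all genes. DESeq2 called 586 of 32865 genes (1.78%), none of them among the 10. All 10 had a fitted value below 0 in white matter, as had 49.3% of all genes, with a median of -0.88 against 0.01 for all genes. That library held 97.8 CPM of Tlr2 and its partner 280.0 CPM, against 244.9 and 147.2 CPM in 4-month grey matter. Cd14 had 81.0 and 239.3 CPM, against 337.5 and 180.8 CPM in grey matter. For both genes 1 or both grey matter libraries lay between the white matter ones, so the regions overlapped.

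Without the first white matter library the log2 difference of Tlr2 was 0.54 ± 0.385 and that of Cd14 was -0.09 ± 0.422, and the median of the 10 was -0.20 with 8 of 10 below 0, as were 51.5% of all genes. Tlr6, Tlr4, Tlr3, Tlr7 and Tlr13 were lower in white matter with no overlap, 5 of the 10, where 15.2% of all genes tested were lower without overlap. Of these, Tlr7 had 78.5 and 354.2 CPM in white matter and 443.0 and 355.6 CPM in grey matter, so its second white matter library nearly matched the lower grey matter one. Tlr6, at 5.09 and 27.9 against 51.5 and 30.2 CPM, and Tlr13, at 45.8 and 238.3 against 331.4 and 252.9 CPM, showed the same arrangement.

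Relative to the microglia marker sum Tlr2 was higher in white matter at 4 months, while its fitted value with all 8 libraries was below 0. It had 2.16% and 1.55% of that sum in white matter, against 0.938% and 0.698% in grey matter. Scaled by microglia markers, the log2 difference of Tlr2 at 4 months was 1.18 with all libraries and 0.93 without the first white matter library. Under that scaling the median of all genes stood at 1.56 with all 8 libraries and at 0.33 without that library. None of these values was called. The direction at 4 months thus depends on the scaling, and for Tlr2 also on single libraries. Under TMM its log2 difference was 0.54 without the first white matter library and 0.35 without the first grey matter library.

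The aging comparisons asked how levels differed between 4 and 21 months in each region. In white matter edgeR called no gene with all 8 libraries (0%), and at an unadjusted p under 0.05 stood 0 of the 10 and 8.1% of all genes. DESeq2 called 425 of 32865 genes (1.29%), none of them among the 10. All 10 had values above 0, as had 51.1% of all genes, with a median of 0.96 against 0.02 for all genes. Tlr2 had a log2 difference of 1.25 ± 0.582 and Cd14 1.39 ± 0.607. Without the first 4-month library these values were 0.67 ± 0.402 and 0.80 ± 0.435, the median of the 10 was 0.22, and 6 of 10 were above 0, as were 51.9% of all genes. In that fit 1 gene in the table was called (0.00571%), and it was none of the 10. Tlr2, with 560.1 and 338.2 CPM at 21 months and 97.8 and 280.0 CPM at 4 months, did not overlap between ages, and neither did Cd14.

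In all, 6 of the 10 (Tlr1, Tlr2, Tlr6, Cd14, Tlr9 and Tlr13) were higher in old white matter with no overlap, where 19.7% of all genes tested were. Tlr9 had 250.7 and 230.7 CPM at 21 months and 45.4 and 201.9 CPM at 4 months. Tlr3, at 98.9 and 88.7 CPM against 14.5 and 98.8 CPM, overlapped, as did Tlr4 with 14.9 and 72.0 CPM at 4 months. For Tlr9, Tlr3 and Tlr4 it was the first 4-month library that lay low, and the second lay near the 21-month values. Leaving out the second 4-month library instead, so that the group was the library that stood apart, gave 9 of 10 genes called higher with age, in a fit that called 12.9% of all genes higher and 25.1% in either direction.

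In grey matter the same aging comparison gave no call by edgeR (0%) or DESeq2, and at an unadjusted p under 0.05 edgeR had 0 of the 10 and 0.733% of all genes. Values below 0 were fitted for 9 of the 10 genes and 51.4% of all genes, with a median of -0.30 against -0.02 for all genes. Tlr1, Tlr4, Cd14, Tlr7 and Myd88 were lower at 21 months with no overlap, 5 of the 10, where 17.1% of all genes tested were. Tlr9 alone was higher with no overlap (17.5% of all genes were), with 226.2 and 247.6 CPM against 206.5 and 198.0 CPM, a log2 difference of 0.23 ± 0.622. Cd14 had the largest fitted difference in size, -0.66 ± 0.598, from 337.5 and 180.8 CPM at 4 months to 174.1 and 153.5 CPM at 21 months. Tlr7 went with it, from 443.0 and 355.6 CPM to 291.0 and 293.9 CPM. The first 4-month library held the higher value of each gene lower without overlap, and it also had the highest neutrophil marker sum of all libraries, 5474 CPM; the part of that in these values was not tested. Under scaling by microglia markers, which put the median of all genes at 0.31, the values of Tlr1, Tlr2, Tlr3, Tlr4 and Tlr13 turned to 0.00 to 0.20.

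The difference between the aging changes of white and grey matter was tested as an interaction in the same fit, and none of the 10 was called (0% of all genes). At an unadjusted p under 0.05 stood 1 of the 10, Cd14, and 2.8% of all genes. DESeq2 called 39 of 32865 genes (0.119%), none of them among the 10. It shares every library with the comparisons above, and came to 2.05 ± 0.851 for Cd14 on the log2 scale (unadjusted p = 0.0454, edgeR adjusted p = 1), 1.53 ± 0.847 for Tlr1 and 1.51 ± 0.816 for Tlr2. Without the first 4-month white matter library the values were 1.45 ± 0.556 for Cd14, 0.82 ± 0.351 for Tlr1 and 0.92 ± 0.513 for Tlr2. Those of Tlr9, Tlr3, Tlr4 and Tlr7 then came to 0.01, 0.14, 0.18 and 0.27. All 10 were above 0 in both fits, as were 49.8% of all genes with all 8 libraries and 51.9% without that library, with medians of 1.07 and 0.47 against -0.01 for all genes in the fit of all 8 libraries.

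Over the 7 libraries without the one that stood apart, Tlr2 and Cd14 varied most among the 10. The SD of log2 CPM was 0.70 for Tlr2, 0.63 for Cd14 and 0.14 to 0.38 for the others. The profile of Tlr2 was nearest to that of Cd14 among the 10, and that of Cd14 to Tlr2, at a root mean square difference of 0.226 on the centred log2 scale. Tlr3 and Tlr7 were nearer still, at 0.114, both with little variation. Among 7720 genes whose mean count reached 50, the nearest profile to Tlr2 was that of Gpr65 (0.168), which encodes an acid-sensing receptor of immune cells. The nearest to Cd14 was that of Plin2 (0.144), which encodes a coat protein of lipid droplets. For the receptors that varied little, near profiles were many and the nearest genes were Fmnl3 for Tlr7 (0.0362), G3bp2 for Tlr3 (0.0316), Serbp1 for Tlr13 (0.0393) and Ptpre for Tlr9 (0.0453). The nearest to Tlr1, Tlr6, Tlr4 and Myd88 were Dad1, Slc10a3, Ccdc97 and Zfp830, at 0.0549 to 0.0762. These likenesses describe 7 libraries and carry no test.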

How the data were processed

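The deposited table holds estimated counts per gene and library. The authors used Partek and DESeq2 in versions not stated, per the submitters' processing notes. Which aligner, build, annotation and strand setting they used is not given in the sources used here. How reads shared by similar genes such as Tlr1 and Tlr6 were assigned is therefore not known; the count of Tlr3 lay up to 0.388 from a whole number. A deposited normalised table and a label file were not used.

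Counts were rounded, filtered with filterByExpr and scaled by TMM (edgeR 4.0.16, R 4.3.3). Of 51810 genes, 18945 had no count and 16237 were tested. Replicate libraries of a group differed by more than sampling noise. All 8 libraries were fitted with 4 group means (robust quasi-likelihood, 4 residual degrees of freedom), two-sided, with Benjamini-Hochberg adjustment over all genes; SEs came from the F statistic. An exact test of 2 libraries against 2 cannot go below p = 0.333. The script was tested on simulated data. Alternatives were the compared groups alone, each library left out, RLE and microglia marker scaling, no filter, a replicate block, limma 3.58.1 voom with quality weights and DESeq2 1.42.0.

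The 10 genes, the pathway lists and the markers were chosen with earlier results of these data known. Named genes were the 10 throughout, pathway genes called with all libraries or the compared groups alone (up to 4 per role), and Ly96, Unc93b1, Ticam1, Tirap, Irak4, Traf6, Nfkb1, Nfkbia, Tnfaip3, Tnf and Il1b, of which the text gives values where regions were compared at 21 months. For likeness, the gene with the smallest root mean square difference of centred log2 CPM was named, leaving out predicted gene models.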

Additional observations from a re-analysis of the deposited data

Results flagged for a closer look

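For Tlr1 and Cd14 the libraries were ordered by age in opposite ways in the 2 regions, and neither gene was called in either region. For both genes, both libraries of 21-month white matter lay above both of 4-month white matter, and both libraries of 21-month grey matter lay below both of 4-month grey matter. The age by region difference was 1.53 ± 0.847 on the log2 scale for Tlr1 and 2.05 ± 0.851 for Cd14, each with an edgeR adjusted p of 1, and 0.82 and 1.45 when the first 4-month library of white matter was left out. Scaled by microglia markers, the aging difference of Tlr1 in grey matter was 0.0034 on the log2 scale. Tlr7 was higher in white than in grey matter at 21 months and lower at 4 months, both without overlap and neither called. The 21-month log2 difference was 0.11 ± 0.644, and at 4 months the second white matter library, at 354.2 CPM, nearly equalled the lower grey matter library, at 355.6 CPM. Scaled by microglia markers, the 4-month difference turned to 0.13, or 0.22 without the first white matter library. The age by region difference of Tlr7 was 1.00 ± 0.913 (edgeR adjusted p of 1), and 0.27 without that library.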

How the results depend on the processing

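At 21 months, calls among the 10 genes numbered 0 with all 8 libraries, 2 with the 21-month libraries alone, and 1 with limma voom quality weights (Tlr2, adjusted p = 0.0403; Cd14, 0.064). None of the 10 was called when the first 4-month white matter library, or any other 1, was left out of the fit of all 8. The following variants of the 21-month fit were chosen after seeing the data: scaling by microglia markers or RLE gave 2 of the 10 and 6 or 5 further pathway genes (1.54% or 1.58% of all genes called), no low-count filter 3 and 13 (2.63%), and the replicate block 2 and 12 (3.55%). Leaving out 1 library of that fit gave 0 to 2 of the 10 and 2 to 10 pathway genes (0.539% to 2.88% of all genes), against 5 with all 4 (1.58%); limma voom called 2 pathway genes (0.758% of all genes). With all 8 libraries and the replicate block, 0 of the 10 were called in each comparison. Deviations of same-numbered libraries correlated at 0.419 between white and grey matter at 4 months, and at 0.0592 between them at 21 months. Across ages the correlations ran from -0.135 to 0.136. Whether the numbers pair samples of the same age is therefore not known, and the main fit did not pair them.

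In the comparisons with 4-month white matter, leaving out 1 library gave 0 to 8 of the 10 and 0 to 33 pathway genes called for region at 4 months, 0 to 9 and 0 to 38 for age in white matter, and 0 to 9 and 0 to 30 for age by region. The highest counts came without the second 4-month white matter library, in fits that called 23.6%, 25.1% and 13.6% of all genes; fewer samples then stand for the group, and the remaining one is assumed to vary like the others. For age in white matter, no low-count filter gave 4 pathway genes and DESeq2 gave 3, all higher, where 2.93% and 1.29% of all genes were called, 792 of 963 and 369 of 425 of them lower.

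Scaling by microglia markers reversed signs. At 4 months it gave Tlr1 0.16, Tlr2 1.18, Cd14 0.53, Tlr7 0.13, Tlr9 0.30 and Myd88 0.53; without the first white matter library as well, Tlr1 0.21, Tlr2 0.93, Cd14 0.30, Tlr3 0.13, Tlr7 0.22, Tlr9 0.37 and Tlr13 0.10. For age in white matter it gave Tlr7 -0.0474 and Myd88 -0.53, and without that library Tlr4 -0.0026, Tlr3 -0.0492 and Tlr7 -0.14. For age in grey matter it gave Tlr1 0.0034 (0.0036 without the first 4-month white matter library), Tlr2 0.11, Tlr4 0.11, Tlr3 0.11 and Tlr13 0.20. For age by region it gave Tlr9 -0.19 and Myd88 -0.32, and without that library Tlr4 -0.11, Tlr3 -0.16, Tlr7 -0.0302 and Tlr9 -0.27.

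Ranges over the fits that each left out 1 library were as follows. At 21 months Tlr4 ran from -0.49 to 0.0561, Tlr9 from -0.0659 to 0.0916 and Myd88 from -0.23 to 0.43. With the 21-month libraries alone, Tlr4 was 0.0418 without the second white matter library. Tlr9 was then -0.0622 without the first white and -0.0527 without the first grey matter library. At 4 months Tlr2 ran from -1.03 to 0.54 and Tlr9 from -2.19 to 0.0149. For age in white matter Tlr4 ran from -0.0384 to 2.27, Tlr3 from -0.0880 to 2.71, Tlr7 from -0.17 to 2.04 and Myd88 from -0.0106 to 1.03. For age in grey matter Tlr2 ran from -0.58 to 0.15, Tlr6 from -0.76 to 0.0018 and Tlr13 from -0.32 to 0.0594. Beyond the scaling, the causes of these reversals were not tested. Depth limits Tlr6 most, which had 14 counts in the first 4-month white matter library.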
